A study of Mus musculus with 12 samples.

Results

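The genes described here are those of cholesterol and fatty acid synthesis, chosen by name from a list of 34 genes that covers the enzymes of the sterol and fatty acid branches, their regulators and sterol transport. Of these, 32 have a row among the 39032 genes of the table, and 29 are among the 11548 genes tested. Acat2 and Acaca have no row under those symbols and were not analysed here, and Abca1, Abcg1 and Nr1h3 were measured below the level required for testing, which was 1 FPKM (fragments scaled by transcript length and by the mapped fragments of the library) in at least 3 libraries. The RNA came from wild-type MC3T3-E1 subclone 14, a clonal mouse pre-osteoblast line, kept in osteogenic medium until day 5 in 4 arms with 3 biological replicates each. The arms received BMP2 (bone morphogenetic protein 2, an osteogenic growth factor) at 100 ng/ml together with RSPO2 (R-spondin 2, a protein that strengthens Wnt responses at the cell surface) at 200 ng/ml, BMP2 alone at 100 ng/ml, RSPO2 alone at 200 ng/ml, or vehicle (Control). All of them shared the ascorbate and β-glycerophosphate of the medium. The series was set up to define which transcripts respond to each protein and to the pair.

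Cholesterol is built from acetyl-CoA through mevalonate, isoprenoid and squalene intermediates, and the same acetyl-CoA feeds the synthesis of saturated fatty acids, which are then elongated and desaturated. When membrane sterol is low, SCAP carries the SREBP transcription factors to the Golgi for cleavage, and the released fragments bind sterol regulatory elements, mostly beside NF-Y, in the promoters of these enzymes. INSIG proteins hold SCAP in the endoplasmic reticulum when sterol is plentiful, so the enzymes often move as a group.

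The promoters of 4 members are printed to show where letters of these elements lie, in 2 mevalonate enzymes with lower levels in BMP2+RSPO2 than in Control (Hmgcs1 and Mvk), in the sterol demethylase Cyp51, which was lower too, and in the retention gene Insig2, whose values ran the other way. Each line holds the 250 bases before the annotated start, from RefSeq on GRCm38.p6, and the capitals mark the sterol regulatory element core TCACNCCAC and the NF-Y box CCAAT on either strand (ATTGG on the reverse). The regions are chr13:119690101-119690350 on the plus strand for Hmgcs1, chr5:114444019-114444268 on the plus strand for Mvk, chr5:4104698-4104947 on the minus strand for Cyp51 and chr1:121332590-121332839 on the minus strand for Insig2, which has 3 annotated starts. The Insig2 window printed is the one that holds CCAAT boxes, and the other windows of that gene hold 0.
Hmgcs1: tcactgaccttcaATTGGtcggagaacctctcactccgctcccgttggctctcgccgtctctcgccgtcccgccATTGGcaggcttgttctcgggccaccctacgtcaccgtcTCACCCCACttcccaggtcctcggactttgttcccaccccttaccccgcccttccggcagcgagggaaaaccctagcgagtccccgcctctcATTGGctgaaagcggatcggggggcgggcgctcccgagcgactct
Mvk: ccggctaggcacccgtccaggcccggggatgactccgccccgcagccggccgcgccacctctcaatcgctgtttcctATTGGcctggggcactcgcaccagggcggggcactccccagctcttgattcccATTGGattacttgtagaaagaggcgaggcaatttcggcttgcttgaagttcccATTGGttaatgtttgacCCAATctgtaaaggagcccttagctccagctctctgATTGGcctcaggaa
Cyp51: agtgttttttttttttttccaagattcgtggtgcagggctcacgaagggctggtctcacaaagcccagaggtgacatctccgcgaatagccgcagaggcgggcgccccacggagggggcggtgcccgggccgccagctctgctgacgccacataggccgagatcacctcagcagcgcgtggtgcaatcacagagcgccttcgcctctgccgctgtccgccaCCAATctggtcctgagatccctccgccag
Insig2: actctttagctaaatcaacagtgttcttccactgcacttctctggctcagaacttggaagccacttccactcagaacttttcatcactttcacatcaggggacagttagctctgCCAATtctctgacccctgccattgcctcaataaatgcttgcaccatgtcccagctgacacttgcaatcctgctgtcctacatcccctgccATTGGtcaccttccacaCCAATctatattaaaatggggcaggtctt

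RefSeq windows of 300 bases (250 before and 50 after a start) were matched for 26 of the 34 members, with 35 windows in all, and none was matched for Abcg1, Fads1, Fdft1, Fdps, Scd1, Scd2, Sqle and Stard4. The core TCACNCCAC was found in 1 of the 26 members, Hmgcs1, as TCACCCCAC with its first base 137 bases upstream of the start, while 1.235% of all 32544 windows and 1.129% of the 9921 windows of tested genes hold it. The NF-Y box CCAAT was present in 18 of the 26 members and in 54.29% of their windows, against 37.36% of all windows and 37.61% of those of tested genes. Mvk had 5 such boxes, Hmgcs1 had 4 with the fourth lying after the start, the Insig2 window printed had 3 and Cyp51 had 1. The GC box GGGCGG was present in 68.57% of the member windows, against 35.88% of all windows and 65.59% of those of tested genes. Matches of different motifs overlapped in 0 member windows. Only exact matches of these letters were counted, so an element written with other letters was missed. A window without a match can therefore still hold such an element. These matches describe letters in a window and not bound sites.

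The libraries carried the osteoblast markers of the labelled cell type, with Runx2 at 21.2 to 48.0 FPKM and Col1a1 at 3935 to 12887 FPKM over all libraries. The 6 osteoblast markers summed to 12910, 16788 and 17540 FPKM in BMP2+RSPO2, 9866 to 11551 in BMP2, 4289 to 6945 in RSPO2 and 4661 to 7346 in Control. One of them, the osteocalcin gene Bglap2, was at 57.9, 1380 and 1297 FPKM in BMP2+RSPO2 replicates 1 to 3, against 68.3, 37.8 and 48.3 in Control, so that replicate 1 lay within the Control range. The 6 adipocyte markers summed to 0 to 0.12 FPKM in BMP2+RSPO2, 0 to 0.08 in BMP2, 0.03 to 0.14 in RSPO2 and 0.02 to 0.06 in Control, with Plin1, Cfd and Lep at 0 throughout. The 4 chondrocyte markers summed to 13.4 to 20.8 FPKM in BMP2+RSPO2, 20.9 to 43.2 in BMP2, 3.54 to 4.47 in RSPO2 and 6.54 to 12.2 in Control, with Acan and Col9a1 at 0. The 4 macrophage markers summed to 1.36, 4.34 and 4.35 FPKM in BMP2+RSPO2, 1.49 to 2.08 in BMP2, 1.01 to 1.29 in RSPO2 and 0.79 to 1.41 in Control, with Adgre1 and Ptprc at 0. Most of that sum in BMP2+RSPO2 replicates 2 and 3 was Cd68, at 0.59, 4.00 and 4.00 FPKM in BMP2+RSPO2 and 1.01, 1.01 and 0.52 in Control. The part of these marker sets in the results was not tested. In bulk RNA, fewer cells of a type and less RNA per cell cannot be told apart. BMP2+RSPO2 replicate 1 stood apart. Its FPKM summed to 635139, against 322074 to 380507 in the others, its top 10 genes held 57.8% of that sum against 11.4% to 19.8%, and the 7SL, 7SK and RNase RNAs held 19.1% of it against 0.179% to 2.30%. Of the proliferation markers, 8 of 8 were highest in replicate 1 of every arm. Those 8 markers summed to 218, 58.9 and 58.5 FPKM in BMP2+RSPO2 replicates 1 to 3, 340, 150 and 158 in BMP2, 409, 71.6 and 74.1 in RSPO2, and 412, 85.7 and 98.3 in Control, and their part in the results was not tested. Among the members, 9 of 29 were also highest in replicate 1 of all 4 arms (Elovl6, Pmvk, Stard4, Hmgcs1, Sqle, Fads2, Msmo1, Scd2 and Sc5d), against 1706 of the 11548 genes.

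On the deposited scale, the combination of BMP2 and RSPO2 was the arm with the lower sterol enzymes. Their summed level was 286, 209 and 217 FPKM in BMP2+RSPO2 replicates 1 to 3, 353, 304 and 314 in BMP2, 320, 298 and 257 in RSPO2, and 346, 335 and 306 in Control. The combined arm had the lowest total of any arm by its mean, 237 ± 42.0 FPKM, against 324 ± 25.7 in BMP2, 292 ± 31.7 in RSPO2 and 329 ± 20.6 in Control (SD, n = 3 each). Its replicate 1 lay between the RSPO2 libraries, so the totals of these 2 arms overlapped. These totals were not rescaled. The median-of-ratios scaling used below divides each library by a factor. That factor was 0.863, 0.900 and 0.894 in BMP2+RSPO2 replicates 1 to 3, against 0.976 to 1.13 in the other arms. Such scaling would raise the totals of the combined arm relative to the others, so their order depends on the scale.

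**Figure D1:**
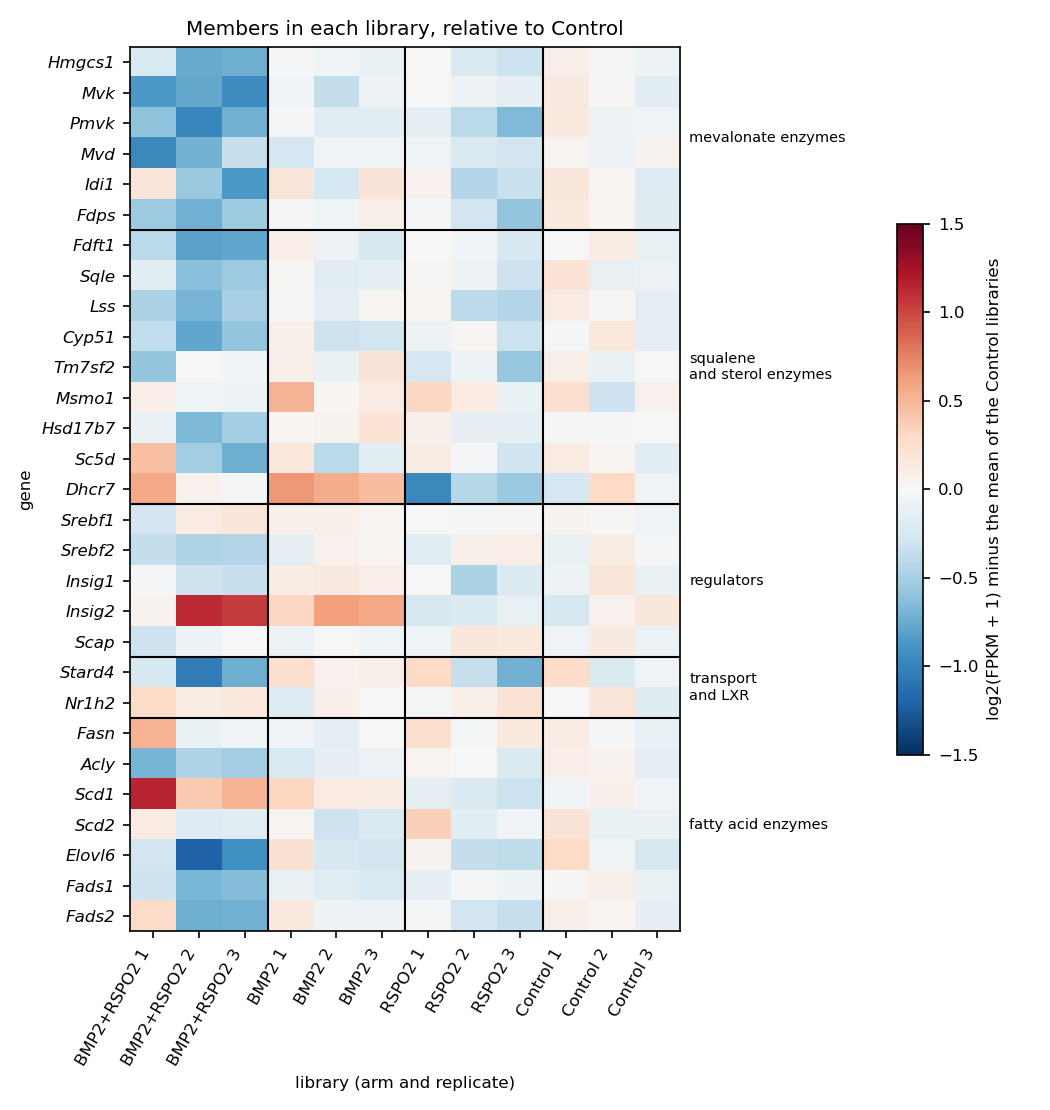
Each cell gives the log2(FPKM + 1) of 1 tested member (rows, grouped by role) in 1 of the 12 libraries (columns), minus the mean of the 3 Control libraries, with red for higher and blue for lower. The mostly blue block at the top left is the mevalonate and early sterol enzymes in BMP2+RSPO2. Replicate 1 is paler there than replicates 2 and 3 for Hmgcs1, Fdft1 and Sqle. It is the darkest for Mvd (7.46, 9.13 and 12.0 FPKM in replicates 1 to 3). For Idi1 replicate 1 is red, at 11.1 FPKM against a Control mean of 9.67. Insig2 and Scd1 hold the darkest red cells of that arm.

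Against Control, 13 of the 29 members fell and 1 rose in the combined arm (limma on log2(FPKM + 1), Benjamini-Hochberg adjusted p under 0.05). Over all genes tested, 19.4% were called lower and 3.65% higher in this comparison, so a fall was common in this arm. The 29 members had a median log2 change of -0.42 and the 15 sterol enzymes one of -0.55, against -0.26 over all genes. Among the sterol enzymes 9 of 15 fell, 5 of 6 in the mevalonate stretch and 4 of 9 in the squalene and sterol stretch, and 0 rose. Of the 14 other members, 4 fell and 1 rose. The shift of all genes depends on the scale: after median-of-ratios scaling, which sets the typical gene of each library level, the median of all genes was -0.04, the sterol enzymes had a median of -0.32, and 2 members were lower (Mvk and Pmvk) and 2 higher (Insig2 and Scd1). The background was then 7.57% lower and 6.62% higher.

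The mevalonate enzymes carried the most called falls for their number. Mvk, mevalonate kinase, was at 6.97, 7.47 and 6.52 FPKM in BMP2+RSPO2, 13.0, 10.3 and 12.8 in BMP2, 13.5, 12.7 and 12.2 in RSPO2, and 14.95, 13.7 and 12.0 in Control. Every library of the combined arm lay below every other library. Its mean was 0.517 times that of Control, and the log2 change was -0.86 ± 0.12 (SE; adjusted p = 0.0011), or -0.60 relative to the median of all genes. The same gene fell against BMP2 (log2 change -0.70, adjusted p = 0.0152) and against RSPO2 (-0.79, 0.00118). After median-of-ratios scaling it passed the threshold in each of these comparisons, with adjusted p = 0.00274 against Control, 0.0252 against BMP2 and 0.00446 against RSPO2. Against BMP2 the call was lost when BMP2 replicate 3 was left out (adjusted p = 0.0758), and against Control and RSPO2 it passed in all 12 fits that left out 1 library.

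Hmgcs1, the HMG-CoA synthase of the mevalonate stretch, was at 54.2, 37.5 and 38.1 FPKM in BMP2+RSPO2, 62.4, 61.0 and 59.2 in BMP2, 63.7, 54.8 and 50.7 in RSPO2, and 68.2, 63.1 and 60.6 in Control. The combined arm lay below BMP2 and below Control in every library, and overlapped RSPO2 through replicate 1. It fell against Control by 0.57 on the log2 scale (SE 0.15, adjusted p = 0.0186), and had a change of -0.50 against BMP2 (0.0724) and -0.39 against RSPO2 (0.072), neither past the threshold. Pmvk, phosphomevalonate kinase, was at 9.67, 7.21 and 8.82 FPKM in BMP2+RSPO2, 14.99, 13.4 and 13.5 in BMP2, 13.6, 11.2 and 9.25 in RSPO2, and 17.0, 14.3 and 14.5 in Control. It fell against Control (log2 change -0.77 ± 0.15, adjusted p = 0.0055) and against BMP2 (-0.65, 0.0392). RSPO2 alone also lay below Control in every library for Pmvk, with a log2 change of -0.40 that did not pass (limma, adjusted p = 0.9997).

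Mvd, mevalonate diphosphate decarboxylase, averaged 9.53 ± 2.30 FPKM in BMP2+RSPO2, 14.2 ± 1.19 in BMP2, 13.5 ± 1.11 in RSPO2 and 15.5 ± 0.875 in Control (SD, n = 3 each). The level fell against Control (log2 change -0.67 ± 0.15, adjusted p = 0.0103) and against RSPO2 (-0.49, 0.0353). Fdps, farnesyl diphosphate synthase, averaged 15.1 ± 1.102 FPKM in BMP2+RSPO2, 23.3 ± 1.33 in BMP2, 19.1 ± 3.99 in RSPO2 and 23.4 ± 2.80 in Control. This gene fell against Control (log2 change -0.60 ± 0.15, adjusted p = 0.0163) and against BMP2 (-0.60, 0.0492). Idi1, the isopentenyl diphosphate isomerase, did not pass in any comparison, and was at 11.1, 6.24 and 4.83 FPKM in BMP2+RSPO2, against 10.95, 9.80 and 8.25 in Control, so that replicate 1 of the combined arm lay above all Control libraries, with a log2 change of -0.41 (95% interval -0.97 to 0.16).

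At the branch point to sterols, Fdft1, squalene synthase, was at 19.5, 14.5 and 14.7 FPKM in BMP2+RSPO2, 27.9, 24.8 and 21.9 in BMP2, 26.1, 25.03 and 22.0 in RSPO2, and 26.1, 28.3 and 24.03 in Control. The combined arm lay below all other libraries, and Fdft1 fell against Control (log2 change -0.66 ± 0.14, adjusted p = 0.00807), against BMP2 (-0.59, 0.0427) and against RSPO2 (-0.57, 0.0143), and after median-of-ratios scaling the same changes had adjusted p = 0.0662, 0.138 and 0.166. Sqle, squalene epoxidase, was at 22.0, 15.8 and 16.7 FPKM in BMP2+RSPO2 and 28.8, 23.0 and 23.3 in Control. Its fall against Control was at the threshold (log2 change -0.45 ± 0.15, adjusted p = 0.04996).

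Lss, lanosterol synthase, was low in absolute level and averaged 2.87 ± 0.335 FPKM in BMP2+RSPO2, 4.52 ± 0.337 in BMP2, 3.77 ± 0.912 in RSPO2 and 4.68 ± 0.523 in Control. The fall against Control passed (log2 change -0.55 ± 0.15, adjusted p = 0.0213). Cyp51, lanosterol demethylase, was at 46.4, 34.6 and 39.8 FPKM in BMP2+RSPO2, 63.8, 48.5 and 49.6 in BMP2, 57.1, 62.0 and 48.2 in RSPO2, and 59.6, 67.7 and 54.5 in Control. On the deposited scale every library of the combined arm was below every other library, and the fall of Cyp51 against Control passed the threshold (limma, log2 change -0.58 ± 0.16, adjusted p = 0.0228). After median-of-ratios scaling neither Lss nor Cyp51 was called against Control. Of the later enzymes, Tm7sf2, Msmo1, Hsd17b7 and Sc5d did not pass in any comparison. Hsd17b7, which reduces the sterol ketone during demethylation, was nearest to the threshold, with 5.26 ± 1.35 FPKM in BMP2+RSPO2 and 7.31 ± 0.119 in Control (adjusted p = 0.0544).

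Dhcr7, the reductase that makes cholesterol in the last step of the Kandutsch-Russell route, followed a different order of arms. It was at 28.6, 19.9 and 18.7 FPKM in BMP2+RSPO2, 30.3, 28.4 and 26.4 in BMP2, 9.20, 13.8 and 12.6 in RSPO2, and 15.7, 23.6 and 18.3 in Control. The RSPO2 libraries lay below all others and the BMP2 libraries above all Control libraries, while BMP2+RSPO2 overlapped Control. BMP2+RSPO2 was higher than RSPO2 (log2 change 0.86 ± 0.20, adjusted p = 0.0112), and this call passed in all 12 fits that left out 1 library and after median-of-ratios scaling (adjusted p = 0.00656). The differences of the single arms did not pass after adjustment, at -0.65 for RSPO2 against Control (limma, adjusted p = 0.67) and 0.56 for BMP2 against Control (adjusted p = 0.304).

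**Figure D2:**
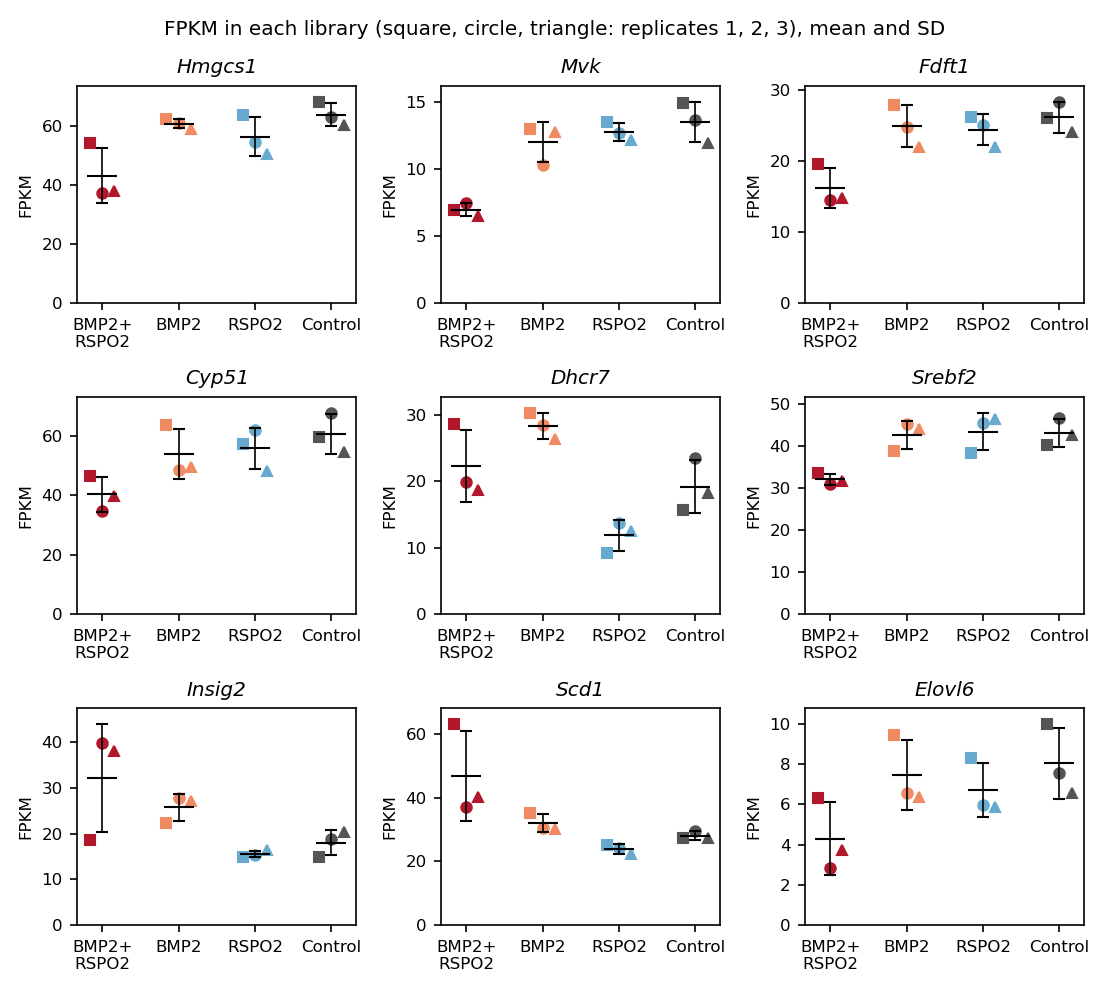
FPKM (vertical axes, from 0) of 9 members in every library, by arm, where squares, circles and triangles are replicates 1, 2 and 3, and bars give the mean and SD of 3 libraries. Mvk, Fdft1, Cyp51 and Srebf2 sit lowest in all 3 BMP2+RSPO2 libraries, Dhcr7 is lowest in RSPO2, and replicate 1 of BMP2+RSPO2 is at 18.5 FPKM for Insig2 where replicates 2 and 3 are at 39.9 and 38.0.

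Among the regulators, Srebf2, which encodes the SREBP that mainly drives sterol enzymes, was at 33.6, 31.0 and 31.6 FPKM in BMP2+RSPO2, 38.9, 45.2 and 44.0 in BMP2, 38.3, 45.6 and 46.4 in RSPO2, and 40.2, 46.8 and 42.6 in Control. The combined arm was below all other libraries, and the change passed against Control (log2 change -0.42 ± 0.11, adjusted p = 0.0207) and against RSPO2 (-0.42, 0.018). Relative to the median of all genes the change against Control was -0.16, and after median-of-ratios scaling it did not pass (log2 change -0.16, adjusted p = 0.46). Srebf1, which encodes the SREBP that mainly drives fatty acid enzymes, stayed between 5.37 and 7.84 FPKM in BMP2+RSPO2, against 6.44 to 7.06 in Control, with a log2 change of 0.01 (95% interval -0.27 to 0.28). Scap, the carrier of SREBP, was at 4.87 to 7.14 FPKM over all libraries and did not pass in any comparison.

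The 2 INSIG genes differed. Insig2 was at 18.5, 39.9 and 38.0 FPKM in BMP2+RSPO2, 22.4, 27.8 and 27.1 in BMP2, 14.9, 15.4 and 16.4 in RSPO2, and 14.9, 18.7 and 20.3 in Control. Replicates 2 and 3 of the combined arm were the highest of all libraries, and replicate 1 lay within the Control range. Insig2 rose against RSPO2 (log2 change 0.93 ± 0.25, adjusted p = 0.0202), whereas its change of 0.74 against Control had adjusted p = 0.0531, and 0.0275 after median-of-ratios scaling. Insig1, itself a target of SREBP, was at 24.7, 20.0 and 19.6 FPKM in BMP2+RSPO2, 27.3, 27.8 and 27.1 in BMP2, 25.2, 17.8 and 21.8 in RSPO2, and 23.8, 28.6 and 23.5 in Control. It did not pass in any comparison, with a log2 change of -0.23 against Control (95% interval -0.54 to 0.08) and a sign that turned to 0.02 after median-of-ratios scaling. The FPKM ratio of Insig2 to Insig1 does not depend on the scaling of a library, and it was 0.751, 1.99 and 1.94 in BMP2+RSPO2, 0.821, 1.00 and 1.00 in BMP2, 0.591, 0.863 and 0.752 in RSPO2, and 0.629, 0.655 and 0.863 in Control.

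Of the 5 sterol transport, efflux and LXR genes, 2 were tested (Stard4 and Nr1h2), and they had no call in any comparison. The efflux transporters were not tested, so they could not be called. Stard4, a soluble carrier of cholesterol, was at 7.92, 4.10 and 5.34 FPKM in BMP2+RSPO2, 11.5, 9.98 and 10.2 in BMP2, 12.0, 7.29 and 5.40 in RSPO2, and 11.7, 8.04 and 9.11 in Control. The combined arm lay below BMP2 and Control in every library, but the changes did not pass (log2 change -0.67, adjusted p = 0.0897 against Control, and -0.81, adjusted p = 0.101 against BMP2). The efflux transporters Abca1 and Abcg1 reached at most 0.45 and 0.18 FPKM in any library. Of the oxysterol receptors LXR, Nr1h3 (LXRα) reached at most 0.28 FPKM, and Nr1h2 (LXRβ) was at 13.0 to 18.3 FPKM and did not pass in any comparison.

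In the fatty acid branch, the desaturase Scd1 rose while its paralogue Scd2 did not pass in any comparison. Scd1, which introduces a double bond into stearoyl-CoA, was at 63.1, 37.1 and 40.2 FPKM in BMP2+RSPO2, 35.3, 30.5 and 30.2 in BMP2, 25.2, 24.2 and 22.3 in RSPO2, and 27.3, 29.6 and 27.2 in Control. All libraries of the combined arm were above all others, replicate 1 by the most. It rose against Control (log2 change 0.68 ± 0.17, adjusted p = 0.0181) and against RSPO2 (0.90 ± 0.17, 0.0043), and its change of 0.50 against BMP2 had adjusted p = 0.112. Scd2, by far the more abundant paralogue, was at 279, 224 and 229 FPKM in BMP2+RSPO2, 262, 206 and 218 in BMP2, 328, 229 and 250 in RSPO2, and 294, 239 and 239 in Control, with a log2 change of -0.08 against Control (95% interval -0.45 to 0.29) and one of 0.18 after median-of-ratios scaling. The ratio of Scd1 to Scd2 was 0.226, 0.166 and 0.176 in BMP2+RSPO2, 0.134, 0.148 and 0.139 in BMP2, 0.0768, 0.106 and 0.0892 in RSPO2, and 0.0928, 0.124 and 0.114 in Control, with no overlap between the combined arm and any other. Reads shared between these paralogues can be split by the counting, so their ratio carries that uncertainty.

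Acly, which makes cytosolic acetyl-CoA from citrate for both branches, was at 24.9, 29.6 and 28.4 FPKM in BMP2+RSPO2, 34.8, 37.7 and 38.7 in BMP2, 42.4, 40.8 and 35.2 in RSPO2, and 44.1, 42.5 and 37.0 in Control. It fell against Control (log2 change -0.56 ± 0.11, adjusted p = 0.00709) and against RSPO2 (-0.50, 0.0103). Fasn, the fatty acid synthase, was at 27.7, 17.7 and 18.3 FPKM in BMP2+RSPO2 and 20.7, 18.8 and 17.6 in Control, with a log2 change of 0.12 (95% interval -0.23 to 0.47), and it did not pass in any comparison. Elovl6, which elongates palmitate, was at 6.34, 2.84 and 3.71 FPKM in BMP2+RSPO2, 9.45, 6.56 and 6.36 in BMP2, 8.29, 5.98 and 5.88 in RSPO2, and 10.0, 7.55 and 6.59 in Control. It was highest in replicate 1 of every arm, and its fall against Control passed the threshold (log2 change -0.81 ± 0.25, adjusted p = 0.0403).

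Of the desaturases of polyunsaturated fatty acids, Fads1, the delta-5 desaturase, was at 60.2, 46.2 and 47.5 FPKM in BMP2+RSPO2, 69.3, 66.5 and 63.9 in BMP2, 69.0, 74.2 and 71.1 in RSPO2, and 76.0, 79.8 and 70.0 in Control. It fell against Control (log2 change -0.55 ± 0.11, adjusted p = 0.00777) and against RSPO2 (-0.48, 0.0126). Fads2, the delta-6 desaturase, was at 75.1, 36.5 and 36.9 FPKM in BMP2+RSPO2, 67.7, 57.9 and 57.6 in BMP2, 59.9, 50.2 and 47.9 in RSPO2, and 65.3, 62.7 and 56.0 in Control. Replicate 1 of the combined arm was the highest of all libraries and replicates 2 and 3 were the lowest, and Fads2 did not pass with that library in (adjusted p = 0.255 against Control). The ratio of Fads1 to Fads2 was 0.802, 1.26 and 1.29 in BMP2+RSPO2 and 1.16, 1.27 and 1.25 in Control. Without BMP2+RSPO2 replicate 1 both genes were called lower against Control.

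**Figure D3:**
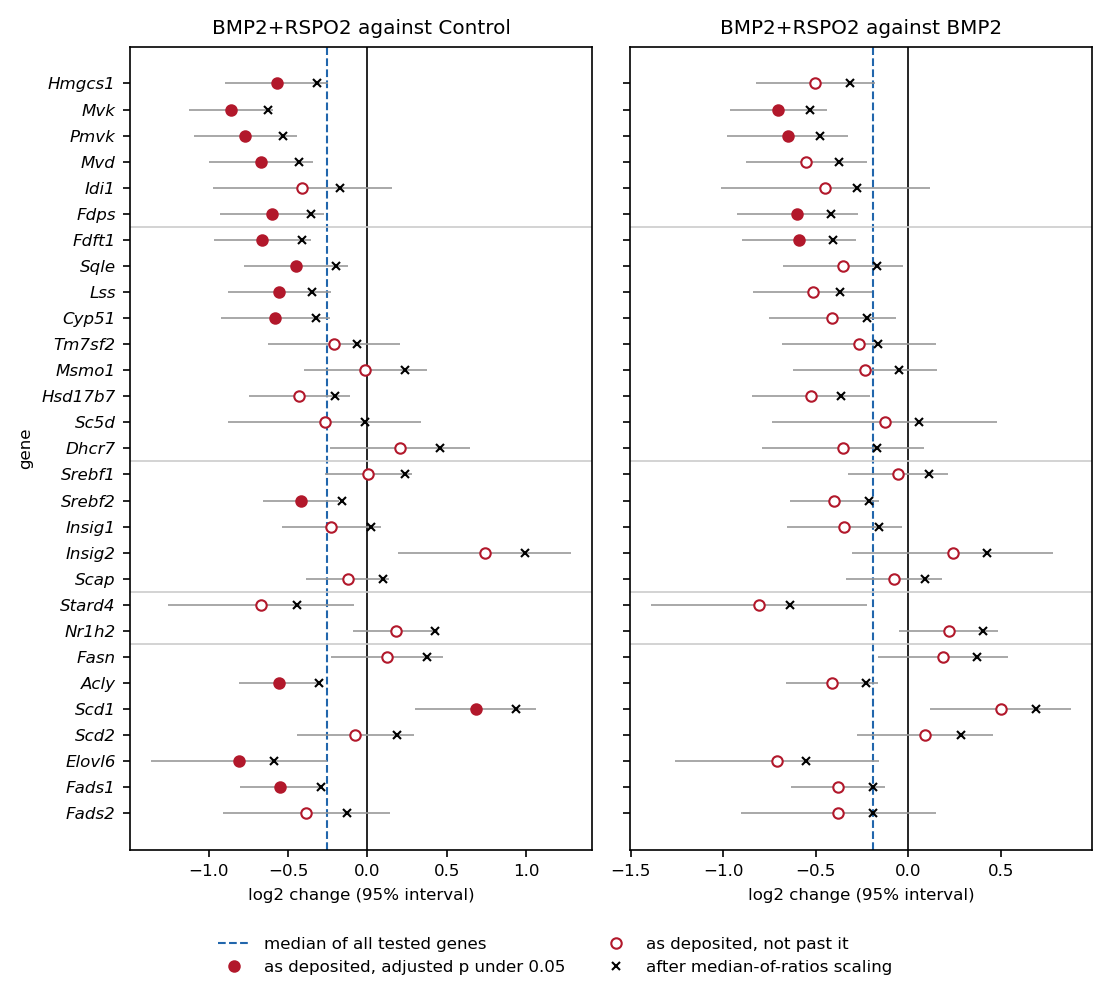
Log2 change of each tested member with its 95% interval (horizontal axes) in BMP2+RSPO2 against Control (left) and against BMP2 (right). Filled circles pass adjusted p under 0.05, open circles do not, crosses give the change after median-of-ratios scaling, and the dashed line is the median of all tested genes (-0.26 left, -0.19 right). Mvk lies farthest left of the called sterol enzymes in both panels, and the crosses lie right of the circles by about the shift of all genes.

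Against BMP2 alone, 4 of the 29 members fell (Mvk, Pmvk, Fdps and Fdft1) and 0 rose at the threshold, against a background of 3.74% lower and 0.641% higher. The sterol enzymes had a median log2 change of -0.50, against -0.19 over all genes, and 15 of 15 were negative, or 14 of 15 after median-of-ratios scaling. With that scaling Mvk was the 1 member called lower and 0 were higher, against 1.12% lower and 1.12% higher of all genes. Against RSPO2 alone, 6 members fell (Mvk, Mvd, Fdft1, Acly, Fads1 and Srebf2) and 3 rose (Dhcr7, Insig2 and Scd1), beside a background of 21.8% lower and 4.32% higher, so the share of members called lower, 20.7%, was near the background. After median-of-ratios scaling Mvk was lower and the same 3 genes were higher, with 8.30% of all genes lower and 7.26% higher. These comparisons share the BMP2+RSPO2 libraries and are not independent.

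With the replicate number as a block in the fit, 14 members were lower and 0 higher against BMP2, where 13.0% and 1.78% of all genes were. Those added to the 4 were Hmgcs1, Mvd, Sqle, Lss, Hsd17b7, Stard4, Srebf2, Elovl6, Acly and Fads1. Against RSPO2 the block gave 11 lower and 3 higher (30.2% and 5.82% of all genes), and against Control 15 lower and 2 higher (28.4% and 5.37%). The correlation of same-number libraries, taken as deviations from their arm means over the genes tested, was 0.158 to 0.362 between BMP2+RSPO2 and BMP2 and 0.199 to 0.368 between BMP2+RSPO2 and Control, while between BMP2+RSPO2 and RSPO2 it was -0.124 to 0.352. All other values given come from the fit without the block.

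With a single protein, 0 members passed. In RSPO2 against Control 0 of 29 were called, where 0.0779% of all genes were. There 2 members had an unadjusted p under 0.05 (Dhcr7 and Pmvk), as did 3.62% of all genes. The sterol enzymes were negative in 14 of 15 cases with a median log2 change of -0.18, against 0.01 over all genes. In BMP2 against Control 0 were called, where 1.52% of all genes were. There 1 member had an unadjusted p under 0.05 (Dhcr7), as did 9.93% of all genes. The sterol enzymes had a median of -0.07 against -0.06 over all genes. The interaction, which is the effect of RSPO2 with BMP2 minus its effect without BMP2, was called for 0 members and for 0.294% of all genes. Its unadjusted p was under 0.05 for 5 of the 29 members (Mvk, Scd1, Srebf2, Fdft1 and Hsd17b7) and for 13.0% of all genes. For Mvk the interaction was -0.63 ± 0.17 on the log2 scale (limma, adjusted p = 0.162) and for Scd1 0.72 ± 0.24 (0.265).

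Leaving out BMP2+RSPO2 replicate 1 raised the number of calls. Against Control 18 members were then lower and 2 higher, where 18.6% and 5.28% of all genes were, and the added ones were Stard4, Hsd17b7, Idi1, Fads2 and Sc5d on the lower side and Insig2 on the higher. Against BMP2, 8 were lower and 1 higher (Insig2), with 4.65% and 1.49% of all genes, and against RSPO2 12 were lower and 3 higher, with 20.6% and 5.91%. The sterol enzymes numbered 12 of 15 among the falls against Control, and their median log2 change was -0.63 against -0.22 over all genes.

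Leaving out the first replicate of all 4 arms, a choice made after the values were seen, gave 18 members lower and 2 higher against Control (27.2% and 7.41% of all genes). With median-of-ratios scaling of the 8 libraries left, 12 were lower and 3 higher (Insig2, Scd1 and Srebf1), against 14.1% and 13.3% of all genes. The sterol enzymes then had a median log2 change of -0.38 where that of all genes was -0.01. Against BMP2 alone 18 were lower and 2 higher (16.4% and 5.37%), and against RSPO2 alone 12 were lower and 3 higher (29.3% and 8.10%). In these libraries the interaction passed for Insig2 (log2 0.77, adjusted p = 0.00976), Scd1 (0.62, 0.0223), Srebf2 (-0.54, 0.0211), Hsd17b7 (-0.60, 0.0377) and Hmgcs1 (-0.43, 0.0384), where 9.60% of all genes were called, and Insig2 and Scd1 passed also with median-of-ratios scaling (adjusted p = 0.0085 and 0.0119). Insig2 passed as well in BMP2 against Control (limma, log2 0.47, adjusted p = 0.0132, with 8.34% of all genes called). In RSPO2 against Control 0 members passed, with 1.69% of all genes called. At an unadjusted p under 0.05 were 10 of the 29 members there, and 13.9% of all genes.

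**Figure D4:**
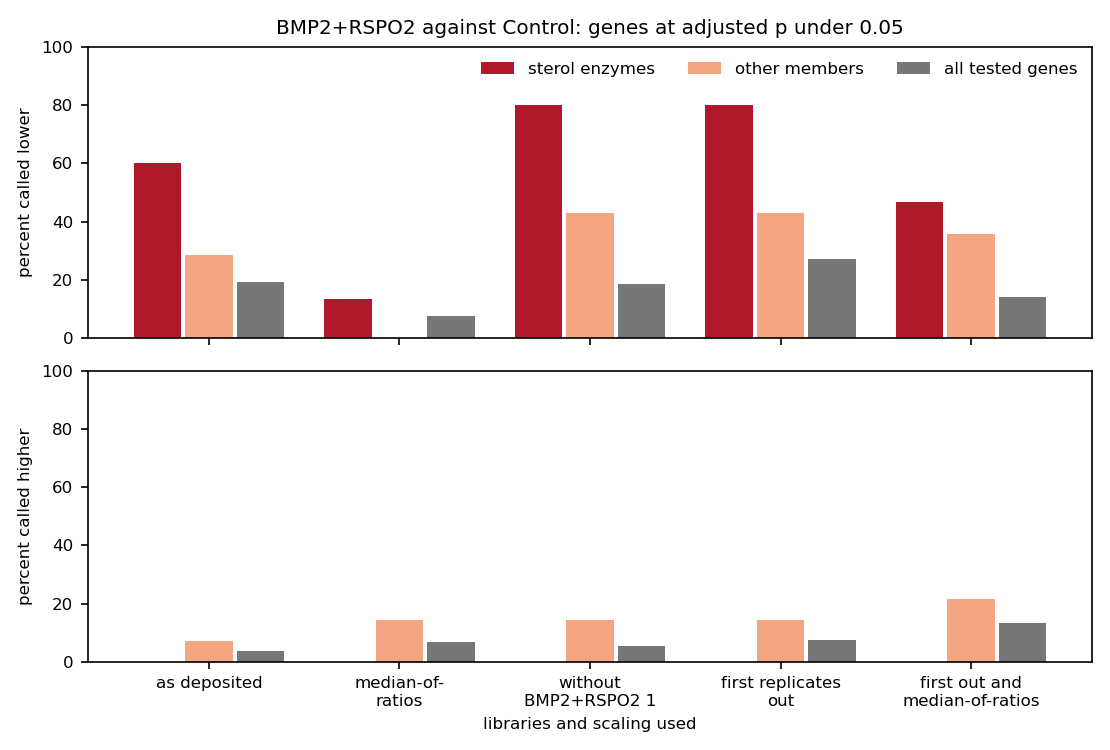
Percent of the 15 sterol enzymes, the 14 other tested members and all 11548 genes called lower (top) and higher (bottom) in BMP2+RSPO2 against Control, for the values as deposited and for 4 other choices of libraries and scaling. The share of sterol enzymes called lower is above that of all genes in each choice shown, 60% against 19.4% as deposited, and after median-of-ratios scaling of all 12 libraries it rests on 2 genes.

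Single libraries decided several of the calls against Control. Those of Mvk, Pmvk, Mvd, Fdft1, Acly and Fads1 passed in all 12 fits that left out 1 library. Of these, only Mvk and Pmvk were still called after median-of-ratios scaling or quantile normalization. Fdps (highest adjusted p = 0.0625), Lss (0.0765) and Cyp51 (0.0801) were lost without Control replicate 1, Control replicate 2 or BMP2+RSPO2 replicate 2. Hmgcs1 (0.0657) was lost without Control replicate 1 or BMP2+RSPO2 replicates 2 or 3, and Srebf2 (0.077) without Control replicates 2 or 3 or BMP2+RSPO2 replicate 2. Scd1 (0.057) was lost without Control replicates 1 or 3, while Elovl6 (0.138) passed in 3 and Sqle (0.167) in 1 of the 12 fits. In the comparison with RSPO2, Insig2 (0.0635) was lost without RSPO2 replicates 1 or 2 or BMP2+RSPO2 replicates 2 or 3.

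A further 22 genes, listed as other genes of the pathway, were described alongside, 21 of them tested. Not all of them supply or use the same intermediates. In BMP2+RSPO2 against Control 8 of the 21 fell (Acss2, Acat1, Acsl3, Mmab, Gpam, Aacs, Pcyt2 and Ggps1) and 1 rose (Me1), with a median log2 change of -0.31 beside -0.26 over all genes, and against RSPO2 the same genes were called in the same directions. The background was 19.4% lower and 3.65% higher against Control, and 21.8% and 4.32% against RSPO2. Against BMP2, in BMP2 against Control and in RSPO2 against Control 0 were called by limma, with 11, 5 and 1 of them at an unadjusted p under 0.05, where 2948, 1147 and 418 of the 11548 genes were. Me1, the cytosolic malic enzyme that supplies NADPH for fatty acid synthesis, was at 86.2, 129 and 129 FPKM in BMP2+RSPO2, 93.2, 87.3 and 83.8 in BMP2, 39.9, 46.8 and 46.3 in RSPO2, and 48.8, 63.2 and 64.3 in Control. Its log2 change was 0.94 ± 0.17 against Control (adjusted p = 0.00402) and 1.33 against RSPO2 (0.000482).

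Acat1, the mitochondrial acetoacetyl-CoA thiolase, was at 18.7, 15.1 and 15.2 FPKM in BMP2+RSPO2, 31.2, 24.5 and 26.3 in BMP2, 41.9, 31.1 and 30.8 in RSPO2, and 46.9, 30.4 and 36.1 in Control, with no overlap between the combined arm and any other. Its log2 change against Control was -1.15 ± 0.18 (adjusted p = 0.00216). Acss2, which makes acetyl-CoA from acetate, was at 0.82, 0.83 and 0.84 FPKM in BMP2+RSPO2, 1.32, 1.34 and 1.46 in BMP2, 2.72, 2.13 and 2.23 in RSPO2, and 2.04, 1.83 and 1.70 in Control, and fell against Control (log2 change -0.64, adjusted p = 0.00419). Acsl3, which activates long-chain fatty acids, averaged 7.65 ± 0.822 FPKM in BMP2+RSPO2 and 13.9 ± 1.18 in Control (SD, n = 3 each; log2 change -0.79, adjusted p = 0.00165). After median-of-ratios scaling, Acss2, Acat1, Acsl3 and Mmab were called lower and Me1 higher against Control.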

How the data were processed

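The authors deposited 1 FPKM value per gene and library for 12 stranded poly(A) RNA-seq libraries, in a table that also holds p-values whose groups are not stated and which were not used. The submitters' processing notes list cutadapt 1.10, FastQC 0.10.1, HISAT2 2.0, StringTie 1.3.4 and edgeR, with the builds GRCm38 and mm10, but identifiers in the table are those of the C57BL/6NJ strain. Counts were not used here and depth is unknown, so no limit is put on a value of 0.

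The values were transformed as log2(FPKM + 1), which understates the change of low genes, and a gene was tested if 3 or more libraries had 1 FPKM or more. One linear model of the 4 arms was fitted with limma 3.58.1 (R 4.3.3) to all genes, with a mean-variance trend, 8 residual and 2.5 prior degrees of freedom, two-sided tests and Benjamini-Hochberg adjustment within each of the 6 comparisons. The fit was tested on simulated data with independent noise in each library and set changes larger than those of the members. Those data held no replicate effect, outlying library or shift of all genes, so the test does not cover these traits. Alternatives were a pseudocount of 0.1, no filter on low values, quantile normalization, median-of-ratios scaling, a block for the replicate number that libraries of different arms share, no variance trend, and leaving out libraries. Named were all members called in any comparison and a fixed set of enzymes and regulators. The members, gene lists and rules were chosen with earlier results of these data known.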

Additional observations from a re-analysis of the deposited data

How the results depend on the processing

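The number of members called moved with the scaling and with the libraries left out. In BMP2+RSPO2 against Control it was 14 as deposited, 4 after quantile normalization and 4 after median-of-ratios scaling. Against BMP2 it was 4, and 1 after either scaling and 1 without the filter on low values. Against RSPO2 it was 9, and 4 after either scaling. Leaving out 1 library gave 7 to 20 against Control (7 without Control replicate 1 or BMP2+RSPO2 replicate 2, 8 without Control replicate 2), 0 to 9 against BMP2 (0 without BMP2 replicate 3, 9 without BMP2+RSPO2 replicate 1, and 1 or 2 for every other library that moved it) and 5 to 15 against RSPO2 (5 without RSPO2 replicate 2, 15 without BMP2+RSPO2 replicate 1). Over all genes, 23.0% were called against Control as deposited, 13.8% without Control replicate 1, 15.8% without Control replicate 2, 19.8% without BMP2+RSPO2 replicate 2 and 23.9% without BMP2+RSPO2 replicate 1. Against BMP2 these shares were 4.38% as deposited, 0.520% without BMP2 replicate 3 and 6.14% without BMP2+RSPO2 replicate 1, and against RSPO2 they were 26.1% as deposited and 26.5% without BMP2+RSPO2 replicate 1, with 1847 of the 11548 genes called without RSPO2 replicate 2. Without the first replicates the members called were 1 for BMP2 against Control, 20 against BMP2, 15 against RSPO2 and 5 for the interaction, and with median-of-ratios scaling added 1, 15, 10 and 2, while RSPO2 against Control stayed at 0 under every alternative. Members and other genes of the pathway pooled, there were 45 calls of single genes over the comparisons. Of these, 18 passed after median-of-ratios scaling, 19 after quantile normalization, 37 without the filter and 44 with the pseudocount of 0.1. Without the variance trend 43 passed, as did 43 without the first replicates, and none changed sign. The other genes of the pathway held 9 of the 45 in BMP2+RSPO2 against Control and 9 against RSPO2. After median-of-ratios scaling 5 and 5 of those were called.

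Of 18 same-number pairs of libraries 16 had a correlation of deviations over 0.1, the lowest being -0.12, against 12 of 36 other pairs. Apart from RSPO2 replicate 3 with BMP2+RSPO2 replicate 1 (0.150), those 12 joined replicate 2 of 1 arm with replicate 3 of another. The contrast thus mostly sets replicate 1 apart, and it does not show that replicates 2 and 3 pair by number. All 3 pairs were over 0.1 between BMP2+RSPO2 and Control and between BMP2+RSPO2 and BMP2, and 2 of 3 between BMP2+RSPO2 and RSPO2. With the replicate block 14 members were called against BMP2 and 14 against RSPO2, where 14.8% and 36.0% of all genes were called, and all 45 calls passed.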
